A study of Mus musculus with 24 samples.

Results

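miR-149 is the pair of mature microRNAs (miRNAs) cut from 1 hairpin, Mir149, and its arms miR-149-5p (mmu-miR-149-5p in the table) and miR-149-3p (mmu-miR-149-3p) were followed here in mouse liver. They are 2 of the 1908 mature miRNA names in the deposited count table, of which 1324 had a count in any library. Both were chosen by their fold changes in each of 2 obese groups relative to lean liver, so those contrasts are given as values without a test. Small RNA was sequenced from 24 liver samples of C57Bl/6J mice, 8 in each of 3 groups. AM132 livers were those of obese mice, fed a high fat diet for 11 weeks and injected intravenously with 3.3 mg/kg of a locked nucleic acid (LNA) oligonucleotide of 16 nt complementary to mature miR-132, on 3 days in a row. AM608 livers came from equally fed obese mice given the same dose of a 15-nt LNA oligonucleotide complementary to miR-608, a primate miRNA with no predicted complementary sequence in mice. RCD livers came from age-matched lean mice on regular chow, for which no injection is described. Obese livers were taken 7 days after treatment. No group holds uninjected obese mice, so diet and injection cannot be told apart between an obese group and RCD. Samples are numbered in the labels with no word on which animal each is from, so a p-value refers to the spread among samples, which may be technical.

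A miRNA is cut from a hairpin precursor, and 1 of its 2 arms is usually kept in an Argonaute protein, where bases 2 to 8, the seed, pair with messenger RNAs and lower their output. The other arm is usually degraded. Mir149 lies within the gene of glypican-1 (Gpc1), a heparan sulfate proteoglycan of the cell surface. In mice, miR-149-5p has been reported to act on Fgf21, the liver-derived hormone that signals through the co-receptor β-Klotho, in fatty liver, and on Parp2 in skeletal muscle.

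Both arms are shown because they are unlike in read number and in composition. The sequences are from RefSeq on GRCm38.p6, 5′ to 3′, with the seed (bases 2 to 8) in capitals.
miR-149-5p: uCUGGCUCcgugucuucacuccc
miR-149-3p: gAGGGAGGgacgggggcggugc
The hairpin that carries them is printed with both arms in capitals.
Mir149 hairpin: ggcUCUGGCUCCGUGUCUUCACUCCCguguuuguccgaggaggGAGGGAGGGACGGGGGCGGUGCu
It spans chr1:92850378-92850443 on the plus strand, with miR-149-5p at 92850381 to 92850403 and miR-149-3p at 92850421 to 92850442. In the GENCODE M21 annotation of the same assembly it lies in intron 1 of the 9-exon coding transcript of Gpc1 (92831645 to 92860779, plus strand), 2904 bases before the next exon. The build behind the deposited counts is not given in the sources used here. In the fold of lowest predicted energy of the 66-base hairpin (−36.7 kcal/mol), 17 bases of the 5p arm pair with the 3p arm, and 6 of the 7 seed bases of miR-149-5p are paired. The 3p arm is rich in G: 15 of its 22 bases, or 68.2%, are G, against a median of 26.9% over the 1679 mature sequences in the RefSeq table. Of those sequences, 3 others hold as large a share of G or larger. The 5p arm has 17.4% G.

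miR-149-5p had a moderate level in both obese groups and a lower one in lean liver. Its level in AM132 livers ran from 139.3 to 322.2 CPM with a median of 260.0 CPM (counts per 1000000 tested miRNA counts, with the total scaled by TMM factors, that is, the trimmed mean of M values). In AM608 livers it ran from 241.3 to 325.2 CPM with a median of 260.9 CPM. In RCD livers it ran from 38.4 to 77.9 CPM with a median of 60.2 CPM. Every obese library therefore stood above every lean one, while the range of AM608 lay mostly within the wider range of AM132. The group means were 249.5 ± 59.5 CPM in AM132, 272.8 ± 31.6 CPM in AM608 and 57.8 ± 11.6 CPM in RCD (SD, n = 8 each). As raw counts, miR-149-5p had 739 to 1959 reads in AM132 libraries, 1878 to 2373 reads in AM608 libraries and 243 to 745 reads in RCD libraries, so counting error was small beside the spread between samples. In a whole liver sample, fewer cells that make a miRNA and less of it per cell cannot be told apart.

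**Figure D1:**
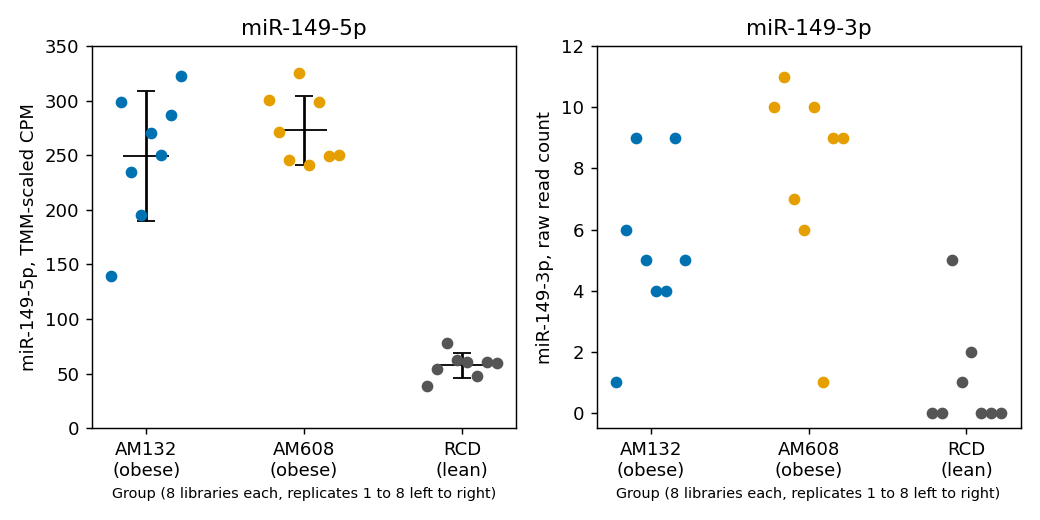
Left, miR-149-5p in TMM-scaled CPM for each of 8 libraries per group, with bars for mean ± SD; right, raw read counts of miR-149-3p. For miR-149-5p all AM132 and AM608 points lie above 139 CPM and all RCD points below 78 CPM, and for miR-149-3p 5 of the RCD libraries are at 0.

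The 2 obese groups differ in the oligonucleotide given, so their contrast asks whether the oligonucleotide against miR-132 moved miR-149. The choice of members did not compare these groups, but it asked for a rise over RCD in both. A miRNA brought back to the lean level in AM132 would not have been chosen, so this contrast is not independent of the choice. miR-149-5p did not differ detectably between AM132 and AM608. The log2 fold change of AM132 over AM608 was −0.13 (SE 0.14, adjusted p = 0.668 by edgeR's quasi-likelihood test). An approximate 95% interval, from the SE and a normal distribution, was −0.41 to 0.15, or 0.754 to 1.11 times the AM608 level. It is somewhat narrow for that test, which allows for the estimated spread. In the same comparison 12.4% of the 421 tested miRNAs passed (4.04% higher and 8.31% lower in AM132), and the median over all of them was 0.05. The ranges of 6.65% of them did not overlap between these groups, with 1.66% higher in AM132. An exact two-sided permutation test of the mean log2 CPM over the 16 libraries gave a difference of −0.16 (7.92 in AM132 and 8.08 in AM608) with p = 0.327. When library totals took the place of TMM factors the log2 fold change was −0.37 (edgeR adjusted p = 0.132) and the median of all tested miRNAs was −0.21. Per 1000000 of all miRNA counts, AM132 averaged 225.8 ± 52.7 and AM608 291.9 ± 23.8 (SD, n = 8 each).

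The libraries of a group did not all hold the same amount of miR-149-5p. The SD of log2 CPM of miR-149-5p was 0.39 in AM132, 0.16 in AM608 and 0.30 in RCD. Of the 46 miRNAs with a mean within 2-fold of its own in AM132, itself included, 5 had a larger SD, against 17 of 46 in AM608 and 47 of 64 in RCD. The difference in spread was not tested. AM132 replicate 1 was the lowest AM132 library for both arms, at 139.3 CPM of miR-149-5p, against 194.98 CPM in the next lowest. Without that library the AM132 mean was 265.3 ± 42.7 CPM (SD, n = 7) and the log2 fold change over AM608 was −0.05 (edgeR adjusted p = 0.872).

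Set against lean liver, miR-149-5p averaged 4.31 times the RCD level in AM132 and 4.72 times in AM608, by the ratio of mean CPM. The lowest AM132 library was 1.79 times the highest RCD library, and the lowest AM608 library 3.10 times. The fitted log2 fold changes were 2.11 for AM132 over RCD and 2.24 for AM608 over RCD. These contrasts share the RCD libraries and are the ones by which miR-149 was chosen. Among 421 tested miRNAs miR-149-5p had rank 4 by fold change in AM132 over RCD and rank 5 in AM608 over RCD, counted from the top. Ordered by the smaller of both log2 fold changes it had rank 4, below miR-205-5p (3.27), miR-582-3p (2.84) and miR-802-3p (2.24) and above miR-802-5p (1.93) and miR-295-3p (1.42). Its groups' separation was shared with few miRNAs: 3.09% of the tested miRNAs had all AM132 libraries above all RCD libraries, and 4.04% had all AM608 libraries above all RCD libraries. In either direction 8.79% did not overlap between AM132 and RCD and 9.26% between AM608 and RCD. By the edgeR adjusted p 34.2% passed in AM132 over RCD, 15.4% higher and 18.8% lower, and 28.7% in AM608 over RCD, 13.5% higher and 15.2% lower, and nothing is read from these shares for the members. By mean level, miR-149-5p had rank 92 of 421 in AM132, rank 93 in AM608 and rank 148 in RCD.

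**Figure D2:**
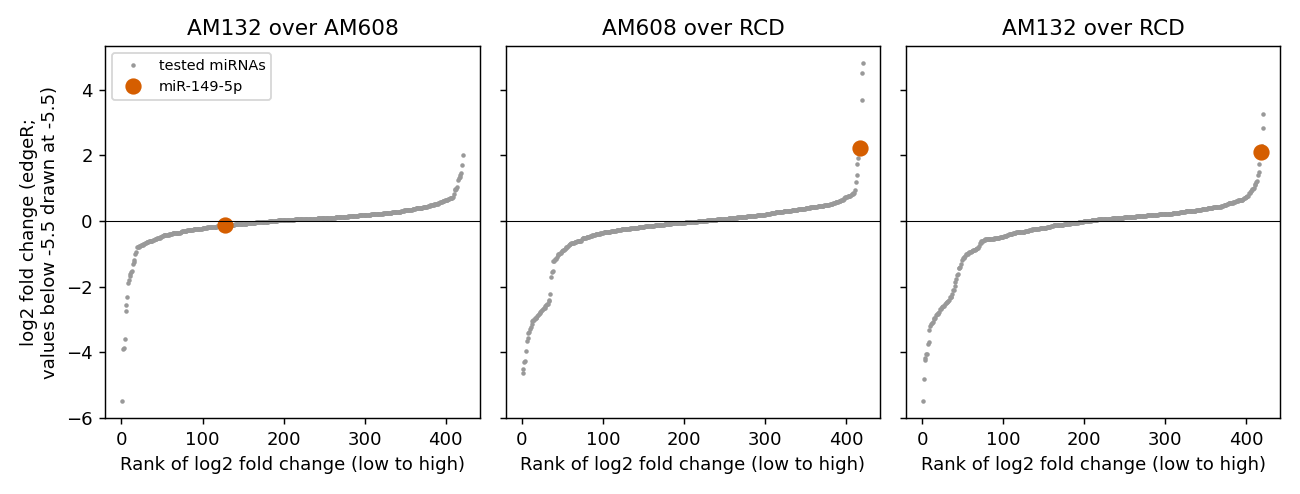
Log2 fold changes of the 421 tested miRNAs in rank order for each comparison, with miR-149-5p as the large point; the lowest values are drawn at the axis limit that its label gives. miR-149-5p lies near 0 in AM132 over AM608 (−0.13) and near the top in AM608 over RCD (2.24) and AM132 over RCD (2.11).

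RCD replicate 3 stood apart among the lean libraries and bears on both arms. It had the highest miR-149-5p level of the RCD group, 77.9 CPM, against 38.4 to 62.9 CPM in the other 7, and held 5 of the 8 miR-149-3p reads of the whole group. The same library had the highest sum of the 7 neuronal marker miRNAs, 1464 CPM, against at most 528 CPM in the other RCD libraries, 409 to 518 CPM in AM132 and 499 to 581 CPM in AM608. In AM132 and AM608 this sum is mostly miR-128-3p, which averaged 459 CPM in AM132, 511 CPM in AM608 and 426 CPM in RCD. The level of miR-9-5p, a neuronal miRNA, in RCD replicate 3 was 529.7 CPM, against 1.65 to 45.3 CPM in the other RCD libraries. miR-9-5p ran from 1.87 to 4.81 CPM in AM132 (median 2.27), 1.65 to 8.71 CPM in AM608 (median 3.88) and 1.65 to 529.7 CPM in RCD (median 22.4), so it was high in several lean libraries. miR-124-3p, a neuron-restricted miRNA, was at 0 in all AM132 libraries and at no more than 0.14 CPM in AM608, against 8.47 CPM in RCD replicate 3 and 0 to 3.86 CPM in the other RCD libraries. RCD replicate 3 was also the lowest RCD library for the 4 hepatocyte markers, at 154143 CPM in sum with an RCD median of 316813 CPM. It set the upper limit of RCD for several other marker sums as well, which without it were 281 in place of 1006 CPM for leukocytes, 15531 in place of 25343 CPM for stellate and mesenchymal cells, 1078 in place of 1773 CPM for erythroid cells, 150 in place of 331 CPM for muscle and 6.87 in place of 13.6 CPM for pancreas. The part of these markers in its miR-149 level was not tested. Without RCD replicate 3 the RCD mean of miR-149-5p was 54.98 ± 8.97 CPM (SD, n = 7), and the group means were 4.54 times that in AM132 and 4.96 times in AM608.

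Markers of other cell types were set beside miR-149-5p in all groups, and some moved with the step between obese and lean liver. Among all tested miRNAs 34.2% passed in AM132 over RCD and 28.7% in AM608 over RCD. Of the 4 tested neuronal markers 2 were lower in both obese groups than in RCD. miR-9-5p had log2 fold changes of −4.83 in AM132 (edgeR adjusted p = 1.56e-04) and −4.27 in AM608 (edgeR adjusted p = 4.53e-04), and without RCD replicate 3 they were −2.74 and −2.16, still called. miR-137-3p had −0.76 in AM132 (edgeR adjusted p = 0.0208) and −1.09 in AM608 (edgeR adjusted p = 1.54e-03). The other 2, miR-129-5p and miR-128-3p, were not called over RCD with all libraries. Without RCD replicate 3 both were higher in AM608 than in RCD (0.83, edgeR adjusted p = 2.03e-03, and 0.34, edgeR adjusted p = 4.80e-03). Neither was called in AM132 over RCD in that fit, so the neuronal list did not move in 1 direction. The muscle marker miR-1a-3p, 1 of 2 tested, was lower too, by −1.87 in AM132 (edgeR adjusted p = 0.0260) and −2.22 in AM608 (edgeR adjusted p = 0.0105), and lost both calls without RCD replicate 3 (edgeR adjusted p = 0.152 and 0.0558). The biliary epithelium list, 5 miRNAs of the miR-200 family, summed to 808 to 2355 CPM in AM132, 585 to 3158 CPM in AM608 and 425 to 1832 CPM in RCD, so the groups overlapped. Of these 5 only miR-200c-3p was called over RCD, higher in AM608 (0.48, edgeR adjusted p = 0.0256). Without RCD replicate 3 it kept that call (edgeR adjusted p = 0.0351), and miR-429-3p was called lower in AM132 (−1.10, edgeR adjusted p = 0.0218). The 2 miRNAs of keratinocytes and squamous epithelium, miR-203-3p and miR-205-5p, were both higher in AM132 than in RCD (0.28, edgeR adjusted p = 0.0357, and 3.27, edgeR adjusted p = 5.14e-06) and in AM608 than in RCD (0.36, edgeR adjusted p = 8.66e-03, and 4.83, edgeR adjusted p = 3.23e-08). Without RCD replicate 3 miR-203-3p was no longer called in AM132 (0.17, edgeR adjusted p = 0.109). miR-205-5p, like miR-149-5p, lay above RCD without overlap, at 4.15 to 45.5 CPM in AM132, 25.9 to 81.9 CPM in AM608 and 0.715 to 3.31 CPM in RCD. The sum of both is mostly miR-203-3p and ran from 2154 to 2882 CPM in AM132, 2240 to 2981 CPM in AM608 and 1224 to 2340 CPM in RCD. Stellate and mesenchymal markers summed to 9300 to 14485 CPM in AM132, 10193 to 16975 CPM in AM608 and 12162 to 25343 CPM in RCD. Of the 5, miR-145a-5p was lower than in RCD in AM132 (−0.61, edgeR adjusted p = 2.34e-03) and in AM608 (−0.65, edgeR adjusted p = 1.45e-03). miR-199a-3p was lower in AM132 only (−0.56, edgeR adjusted p = 0.0155), and the others were not called over RCD. Endothelial markers summed to 42050 to 58549 CPM in AM132, 41240 to 47919 CPM in AM608 and 28539 to 43232 CPM in RCD, where the highest without replicate 3 was 41427 CPM, below all AM132 libraries. Of the 2 tested, miR-126a-3p was higher than in RCD in AM132 (0.36, edgeR adjusted p = 1.36e-03) and in AM608 (0.29, edgeR adjusted p = 0.0104). miR-126a-5p was not called over RCD and had negative values in both. The hepatocyte markers were at 338284 to 442932 CPM in AM132, 226894 to 326858 CPM in AM608 and 154143 to 369008 CPM in RCD, and none of them was at 0. Over RCD, miR-192-5p (0.53, edgeR adjusted p = 7.56e-04) and miR-194-5p (0.45, edgeR adjusted p = 0.0174) were higher in AM132 only. miR-122-3p was lower in AM608 only (−0.89, edgeR adjusted p = 0.0242), and miR-122-5p was not called over RCD. The hepatocyte sums of the obese groups did not overlap. In AM132 over AM608, miR-192-5p was called higher (0.58, edgeR adjusted p = 8.16e-04). Called lower there were miR-199a-3p (−0.74, edgeR adjusted p = 4.50e-03), miR-429-3p (−1.19, edgeR adjusted p = 0.0445) and miR-205-5p (−1.55, edgeR adjusted p = 9.75e-03). No other tested marker was called in that comparison, where 12.4% of all tested miRNAs were. The part of these markers in the level of miR-149-5p was not tested. Leukocyte markers overlapped across the groups too (119 to 279 CPM in AM132, 128 to 255 CPM in AM608 and 97.2 to 1006 CPM in RCD), but this sum rests on 3 of 5 markers: both arms of miR-142, the defining leukocyte miRNA, are listed at 0 in every library, and how the authors counted them could not be checked. Erythroid markers summed to 269 to 1519 CPM in AM132, 334 to 786 CPM in AM608 and 298 to 1773 CPM in RCD. Muscle markers summed to 9.24 to 62.1 CPM in AM132, 7.95 to 37.2 CPM in AM608 and 17.1 to 331 CPM in RCD, and pancreatic markers to no more than 13.6 CPM in any library.

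miR-149-3p was close to the limit of detection, and the part of its G content in this was not tested. It had 1 to 9 reads in AM132 libraries (median 5), 1 to 11 reads in AM608 libraries (median 9) and 0 to 5 reads in RCD libraries (median 0), where AM132 libraries totalled 5926983 to 8734721 miRNA counts, AM608 libraries 6855571 to 8532049 and RCD libraries 5689143 to 8380591. All 16 obese libraries held at least 1 read, whereas 5 of 8 RCD libraries held none. A count of 0 in an RCD library allows up to 0.355 to 0.589 CPM (3 counts, counting error only). Pooled over each group, miR-149-3p stood at 0.857 CPM in AM132 (exact 95% Poisson interval 0.620 to 1.15, 43 reads), 0.952 CPM in AM608 (0.731 to 1.22, 63 reads) and 0.141 CPM in RCD (0.0611 to 0.279, 8 reads). Without RCD replicate 3 the RCD value was 0.0638 CPM (0.0132 to 0.187, 3 reads). These intervals cover counting error only, as reads without molecular identifiers are not independent molecules.

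The 3p arm did not pass the edgeR filter on low counts, so only 1 of the 2 members was among the 421 tested miRNAs. In the fit without a filter its log2 fold change of AM132 over AM608 was −0.15 (SE 0.49, edgeR adjusted p = 0.982). An exact two-sided permutation test of mean CPM gave 0.866 ± 0.464 in AM132 and 0.952 ± 0.393 in AM608 (SD, n = 8 each, p = 0.699). No difference between the obese groups was detectable at this depth. The fitted log2 values over RCD, given as a description, were 2.52 for AM132 and 2.67 for AM608, and without RCD replicate 3 they were 3.42 and 3.58.

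miR-149-5p made up nearly all reads of the hairpin in every group. How well the library preparation recovers each arm was not measured, so these read ratios do not measure arm use. There were 291 reads of the 5p arm for each read of the 3p arm in AM132, 284 in AM608 and 419 in RCD. The 3p share of both arms was 0.342% in AM132 (95% Wilson interval 0.254 to 0.460% of 12572 reads), 0.351% in AM608 (0.275 to 0.449% of 17933 reads) and 0.238% in RCD (0.121 to 0.469% of 3363 reads). The 3 intervals overlap, but they pool the reads of 8 libraries and cover counting error only. A difference in the share between obese and lean liver was not tested. Without RCD replicate 3 the RCD share was 0.115% (0.0391 to 0.337% of 2613 reads). The mean log2 ratio of 5p to 3p counts, with a pseudocount of 0.5, was 8.18 ± 0.60 in AM132 and 8.25 ± 0.99 in AM608 (SD, n = 8 each). The difference of −0.07 gave p = 0.901 in an exact two-sided permutation test over 12870 assignments. Its sign turned without AM132 replicate 3 (0.09) or AM608 replicate 6 (0.27). In RCD the ratio was 8.71 ± 1.07, in which 5 of the 8 values rest on the pseudocount.

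**Figure D3:**
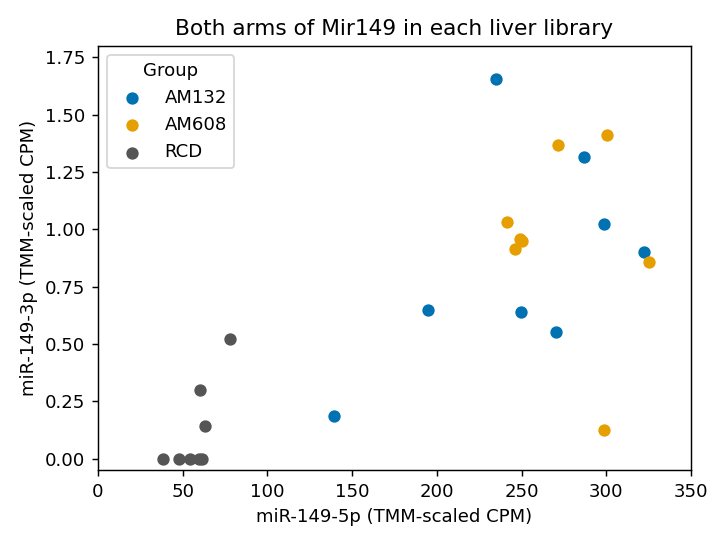
Each point is 1 library, with miR-149-5p on the x axis and miR-149-3p on the y axis, both in TMM-scaled CPM, coloured by group. RCD libraries gather at the lower left, and AM608 replicate 6 lies at 299 CPM of miR-149-5p with 0.127 CPM of miR-149-3p.

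Both arms come from 1 precursor, and the design allowed asking whether they varied together within a group. Of the 3 groups, none passed. In AM132 Pearson's r was 0.686 (exact permutation p = 0.0652, adjusted 0.0978) and Spearman's rho 0.405 (exact permutation p = 0.327, adjusted 0.49). In AM608 r was −0.268 (exact permutation p = 0.617) and rho −0.143 (p = 0.752). In RCD r was 0.693 (exact permutation p = 0.0565, adjusted 0.0978) and rho 0.736 (p = 0.0536, adjusted 0.161). Without the 2 libraries farthest from the median of miR-149-5p, r was −0.15 in AM132, −0.74 in AM608 and 0.46 in RCD. The AM132 value rests on those libraries, among them replicate 1, and a library gave only 0 to 11 reads of miR-149-3p. In AM608 the libraries kept included replicate 6, which had 1 read of miR-149-3p. With only that library left out, r in AM608 was 0.19.

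Across all 24 libraries, the profile nearest to that of miR-149-5p was that of miR-802-3p, followed by miR-802-5p, miR-676-3p, miR-295-3p and miR-107-3p. Likeness was the root mean square distance between log2 CPM profiles, each centred on its own mean over the 24 libraries. It was 0.38 log2 units for miR-802-3p, 0.55 for miR-802-5p, 0.62 for miR-676-3p, 0.67 for miR-295-3p and 0.68 for miR-107-3p, with a median of 1.12 over 420 miRNAs. Since the profiles include the step between obese and lean liver by which miR-149 was chosen, the order is a description. miR-802 has been reported to be raised in obese mouse liver and to impair insulin signalling, and miR-107-3p is a miRNA of a pantothenate kinase intron linked to insulin sensitivity. Their mature sequences are shown because none of the 5 has the seed of either miR-149 arm.
miR-802-3p: aCGGAGAGucuuugucacucag
miR-802-5p: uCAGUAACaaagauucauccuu
miR-676-3p: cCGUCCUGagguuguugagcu
miR-295-3p: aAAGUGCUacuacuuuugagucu
miR-107-3p: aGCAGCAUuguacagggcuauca
miR-802-3p had 41.7 to 159 CPM in AM132 (median 95.4), 84.8 to 123 CPM in AM608 (median 101) and 12.9 to 29.3 CPM in RCD (median 22.5). As for miR-149-5p, its obese groups lay above RCD without overlap and did not differ detectably (0.03, SE 0.21, edgeR adjusted p = 0.931, AM132 over AM608). AM132 replicate 1 was the lowest AM132 library for 4 of the 5, all but miR-676-3p. RCD replicate 3, in contrast, was the lowest RCD library for 4 of the 5, again all but miR-676-3p, and the highest for miR-149-5p. Among the 4, miR-295-3p was close to the limit of detection, at 0.189 to 2.57 CPM in AM132, 1.65 to 3.36 CPM in AM608 and 0.105 to 1.34 CPM in RCD. Its order within a group is therefore uncertain. Between the obese groups miR-676-3p was lower in AM132, at 171 ± 41.1 CPM than in AM608, at 249.6 ± 30.2 CPM (SD, n = 8 each), a log2 difference of −0.54 (SE 0.13, edgeR adjusted p = 0.00450).

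**Figure D4:**
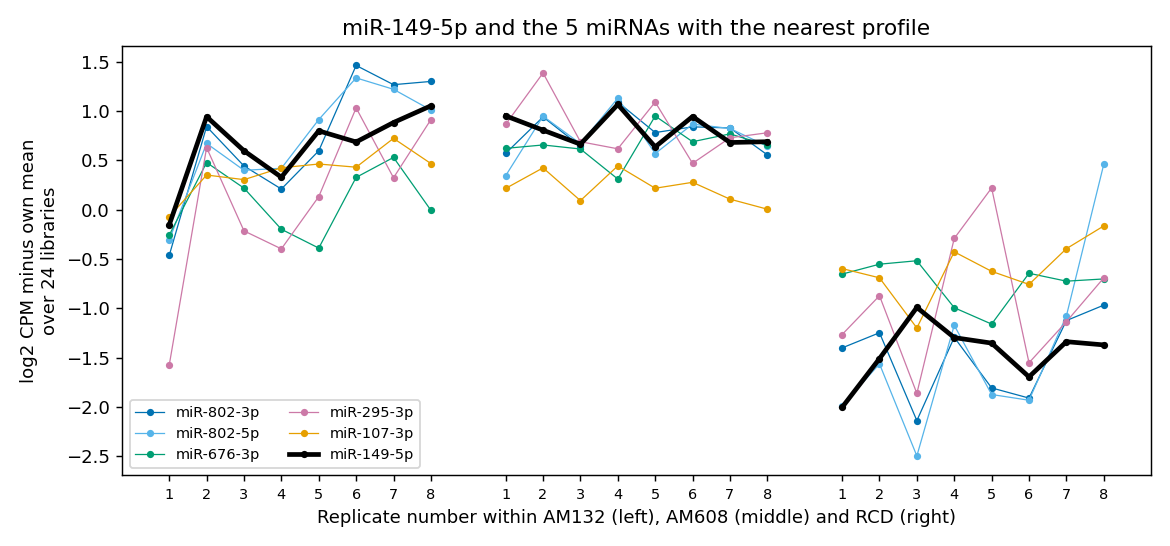
Log2 CPM of miR-149-5p (heavy black line) and of the 5 nearest miRNAs in each of 24 libraries, each minus its own mean; lines only join points of the same miRNA and replicate numbers carry no order. miR-149-5p is above its mean in 15 of 16 obese libraries and below it in all RCD libraries, and in RCD replicate 3 it lies above the other 5 except miR-676-3p.

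For miR-149-3p the nearest profiles were those of miR-676-3p (0.65 log2 units), miR-152-5p (0.70), miR-450b-5p (0.72), miR-1249-3p (0.72) and miR-295-3p (0.72), with a median of 1.01 over 420 miRNAs. miR-149-3p enters these distances with 0 to 11 reads in a library. Of these 5 names, only miR-676-3p and miR-295-3p are on both lists.

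No other mature mouse sequence in the RefSeq table shares bases 2 to 8 with miR-149-5p, and 4 share bases 2 to 7. Of these 4, only miR-3064-5p was tested, at 1.46 ± 0.45 CPM in AM132, 1.37 ± 0.38 CPM in AM608 and 1.01 ± 0.20 CPM in RCD (SD, n = 8 each), and it passed in no comparison (edgeR adjusted p = 0.825 for AM132 over AM608, 0.221 for AM608 over RCD and 0.0869 for AM132 over RCD). In this liver the full seed of miR-149-5p was thus carried by miR-149-5p alone among the names that matched. The seed of miR-149-3p is shared by 3 sequences, of which miR-1943-5p was tested and is printed for its match.
miR-1943-5p: aAGGGAGGaucugggcaccugga
miR-1943-5p was more abundant than miR-149-3p itself, at 4.44 ± 0.91 CPM in AM132, 4.11 ± 1.08 CPM in AM608 and 2.44 ± 0.88 CPM in RCD (SD, n = 8 each). It was higher in both obese groups than in RCD, with log2 fold changes of 0.86 (SE 0.21, edgeR adjusted p = 2.58e-03) for AM132 and 0.75 (SE 0.21, edgeR adjusted p = 8.64e-03) for AM608. These comparisons share the RCD libraries. The reads of the others with either seed were few: 9 for miR-7652-3p, 12 for miR-6967-5p, and none for miR-7688-3p, miR-3085-3p and miR-7016-5p, over 24 libraries.

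Other miRNA genes near Mir149 were looked up by position. Within 10 Mb on chromosome 1 the RefSeq table places 11 other mature miRNAs of the count table, 2 of which were tested. miR-3535, the nearer of both, was higher in AM132 than in AM608 (0.45, edgeR adjusted p = 3.43e-03) and not called in AM608 over RCD (−0.21, edgeR adjusted p = 0.144). miR-5126 was called in neither (2.03, edgeR adjusted p = 0.0643, and −0.53, edgeR adjusted p = 0.644). The gene nearest to Mir149, Mir6900 at 0.386 Mb, gave 9 reads of miR-6900-3p in AM132, 12 in AM608 and 8 in RCD, where miR-149-5p gave 12529 reads in AM132, 17870 in AM608 and 3355 in RCD.

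The letters that pair with the seed of miR-149-5p, GAGCCAG, were searched on the transcript strand in the longest annotated 3′ untranslated region (UTR) of each coding gene in GENCODE M21. They occur in 14.7% of 20913 genes. The UTR of the host gene Gpc1, 2215 bases long, holds 3 of them, which are shown with 10 bases on each side and the match in capitals, numbered by their first base in the UTR.
Gpc1 199: ggtcagctgcGAGCCAGtgtccccaaa
Gpc1 1870: tgggaggaggGAGCCAGgataccagag
Gpc1 1884: caggataccaGAGCCAGccagcctacg
Of 2961 UTRs of like length, within a factor of 0.8 either way, 23.3% hold the letters at least once and 18, or 0.608%, hold them at least 3 times. In human endothelial cells miR-149-5p has been reported to act on GPC1. The UTRs of Fgf21 (134 bases), Klb, which encodes β-Klotho (310 bases), Plin2, which encodes the lipid droplet protein perilipin 2 (468 bases), and Parp2 (107 bases) hold no match, where 2.06%, 4.52%, 7.10% and 0.923% of UTRs of like length do. Sites with other pairing were not searched, and no messenger RNA was measured here. The letters for miR-149-3p, CCTCCCT, are in 19.6% of the 20913 and in none of these 5 UTRs.

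Other miRNAs of hepatic lipid and hormone signalling were set beside miR-149-5p. The lists were chosen with earlier results of these data known, so their counts beside the shares over all miRNAs are a description only. Both arms of miR-802 count separately in them. Of 16 tested miRNAs reported to change in fatty liver, 0 were higher and 2 lower in AM132 than in AM608, a share close to the 12.4% called among all tested miRNAs. They were miR-34a-5p at −0.75 (edgeR adjusted p = 9.15e-04) and, at −1.55, miR-205-5p (edgeR adjusted p = 9.75e-03), where miR-149-5p had −0.13. The list's median log2 fold change was 0.03 in that comparison, beside 0.05 over all tested miRNAs. In AM132 over RCD 5 of the 16 were higher and 1 lower, where 15.4% of all tested miRNAs were higher and 18.8% lower (median 0.13, beside 0.03 over all). In AM608 over RCD 6 were higher and 2 lower, where 13.5% of all were higher and 15.2% lower (median 0.32, beside −0.03). Those higher in both were miR-802-5p, miR-802-3p, miR-103-3p, miR-107-3p and miR-205-5p, and miR-21a-5p was lower in both. Apart from miR-149, 9 miRNAs linked in the literature to FGF21, β-Klotho, Sirt1 or PGC-1α were listed, and 8 were tested. In AM132 over AM608 0 were higher and 5 lower, where 4.04% of all tested miRNAs were higher and 8.31% lower (median −0.49, beside 0.05 over all). The 5 were miR-132-3p, which the AM132 oligonucleotide is made against and which had no read in AM132, its seed relative miR-212-3p (−1.61, edgeR adjusted p = 0.0441), miR-34a-5p, which acts on β-Klotho in mouse liver, miR-23a-3p (−0.60, edgeR adjusted p = 5.94e-03) and miR-23b-3p (−0.37, edgeR adjusted p = 0.0445). In AM132 over RCD 1 of the 8 was higher and 4 lower (median −0.46, beside 0.03 over all). In AM608 over RCD 1 was higher, miR-34a-5p (0.52, edgeR adjusted p = 0.0105), and 0 lower (median 0.02, beside −0.03). miR-34a-5p averaged 27.2 ± 4.81 CPM in AM132, 45.8 ± 6.18 CPM in AM608 and 31.9 ± 8.84 CPM in RCD (SD, n = 8 each).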

How the data were processed

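The authors deposited raw read counts per mature miRNA, without normalization, in 1 table with 24 liver columns, matched to samples by the group and number in the column names. Per the labels' protocols, RNA (RIN above 8.4) was made into libraries from 300 ng with the NEBNext small RNA kit. Per the submitters' processing notes FastQC was used; neither the aligner nor the rule for reads shared between sequences is named in the sources used here. All 84 pairs of libraries within groups differed by more than sampling noise (chi-square over degrees of freedom at least 25.7). The tRNA fragment table was not used.

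Counts were tested with edgeR 4.0.16 (R 4.3.3; robust quasi-likelihood fit, TMM, filterByExpr, group as the only term, all 24 libraries) with Benjamini-Hochberg adjustment over 421 miRNAs and a threshold of 0.05, after a test on simulated data. An SE is the absolute log2 fold change divided by the square root of F. DESeq2 1.42.0, limma 3.58.1 and other filters, scalings and sample sets were alternatives. CPM uses TMM-scaled sums of tested counts. RNAfold 2.7.2 folded the hairpin. Of 1908 names, 1603 matched RefSeq by name. Members and lists were chosen with earlier results of these data known. The text names both arms, the 5 nearest profiles to each, seed and chromosome 1 neighbours with counts, and, from each of the fatty liver and FGF21 lists, at most 6 called members by smallest p. miR-149-3p failed the filter and is taken from the fit without one. Shared replicate numbers did not pair the samples.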

Additional observations from a re-analysis of the deposited data

Results flagged for a closer look

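AM608 replicate 6 stood apart from the other AM608 libraries for miR-149-3p, at 0.127 CPM, which is 1 read, against 0.856 to 1.41 CPM in the other 7. The gap to the nearest was 0.569 of the group's range. For the same library the log2 ratio of 5p to 3p counts was 10.6, with a gap of 0.71 of the range. Both flags rest on the same 1 read, since its miR-149-5p level of 298.8 CPM was within the range of the group. Chance flags about 1 in 20 groups, and 9 were looked at (3 measures in 3 groups). No AM132 or RCD library was flagged for either arm.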

How the results depend on the processing

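For miR-149-5p in AM132 against AM608, all 34 alternatives kept a negative log2 fold change without a call, from −0.37 with library totals to −0.05 without AM132 replicate 1 (lowest adjusted p 0.132). Over RCD its log2 fold change ran from 1.88 to 2.20 in AM132 and from 2.17 to 2.31 in AM608. miR-149-3p kept its sign without a call in AM132 against AM608 (−0.36 to −0.03), and could not be fitted at a mean CPM of at least 10. The arm ratio ran from −0.18 to 0.27 over the fits that leave 1 library out, turning positive without AM132 replicate 3 (0.09) and AM608 replicate 6 (0.27), with no p under 0.297. The arm correlation in AM608 likewise ran from −0.45 to 0.19 (0.19 without AM608 replicate 6), in AM132 from 0.18 to 0.86 and in RCD from 0.45 to 0.78, and with library totals it was −0.68 in AM608 (exact permutation, adjusted p = 0.0660), none passing. The count of miRNAs called in AM132 against AM608, 52, became 91 (8 higher and 83 lower) with library totals and 87 when RCD was kept out of the fit (35 higher and 52 lower). In AM132 against RCD 144 became 94 at a mean CPM of at least 10, where 259 miRNAs were tested, and the split of 65 higher and 79 lower became 27 and 105 with library totals. The cause of the other changes was not tested. Without RCD replicate 3, an alternative chosen after seeing the data for the lists, the fatty liver list had 6 higher and 1 lower in AM132 over RCD and 7 higher and 3 lower in AM608 over RCD, and the FGF21 list 2 higher and 4 lower and 2 higher and 1 lower. In AM132 over AM608 they had 0 higher and 2 lower, and 1 higher and 5 lower. That fit tested 422 miRNAs, with 16 on the fatty liver list and 8 on the FGF21 list. Of all 422, 56 were higher and 76 lower in AM132 over RCD, and 66 higher and 67 lower in AM608 over RCD. In AM132 over AM608, 21 of the 422 were higher and 43 lower. Same-numbered samples did not deviate together (r −0.48 to 0.43 over 24 pairs, 11 above 0.1, and 4 of 24 libraries nearest to their own number). With the replicate number as a block, miR-149-5p in AM132 against AM608 had −0.16 (edgeR adjusted p = 0.547), miR-149-3p −0.17 (1.0) and the arm ratio −0.07 (exact p = 0.883). The block gave 47, 109 and 132 calls in the 3 comparisons, against 52, 121 and 144. Depth limits miR-149-3p, whose 0 to 11 reads per library leave its share of the hairpin's reads imprecise.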
